A study of Homo sapiens with 15 samples.

Results

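The genes of the epithelial-mesenchymal transition (EMT) described here are 6 classical EMT transcription factors and the intermediate filament gene VIM. The factors are SNAI1, SNAI2, TWIST1, TWIST2, ZEB1 and ZEB2. The 7 genes were taken by symbol, with earlier results of these data known, and all are reported whatever their result. Expression had been measured by RNA-seq in 2 human clear cell renal cell carcinoma (ccRCC) lines, CAKi-1, which has wild-type VHL, and 786O, which is known to carry mutant VHL. Each line was measured as cells that had kept ANGPTL4 (WT) and as cells in which CRISPR-Cas9 had knocked it out (A4KO). ANGPTL4 encodes a secreted inhibitor of lipoprotein lipase. CAKi-1 was represented by 4 WT libraries and 5 A4KO libraries, and 786O by 3 of each genotype, from growing cultures with serum and no further treatment, for which the labels name RPMI and the study's methods DMEM as the medium. All 7 genes were among the 16296 genes of CAKi-1. SNAI1, SNAI2, ZEB1, ZEB2 and VIM were among the 16188 genes of 786O, and TWIST1 and TWIST2 were not analysed in 786O. Values are in TPM, a share of all transcripts that is scaled by transcript length, so that genes can be compared within a library.

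The A4KO cells of both lines were mixtures of edited clones, and the 786O WT cells were a mixture of clones that had kept ANGPTL4. By the study's methods the CAKi-1 WT cells were the parental line, so that in CAKi-1 the growth from single cells and the loss of ANGPTL4 cannot be told apart. Nothing states that the libraries of a group came from separate cultures, and the p-values then measure only the spread between these libraries.

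In EMT, epithelial cells lose their cell junctions and their apical-basal polarity and take on the migratory form of mesenchymal cells. SNAI1 (Snail) and SNAI2 (Slug) are zinc finger proteins that bind E-box sequences and repress epithelial genes such as CDH1, which encodes E-cadherin. ZEB1 and ZEB2 are zinc finger homeobox repressors that bind the same E-boxes and hold the miR-200 family down, which in turn silences them. TWIST1 and TWIST2 are basic helix-loop-helix factors, and vimentin, the product of VIM, is the intermediate filament by which mesenchymal cells are recognised. Tubule cells of the adult kidney come from mesenchyme, and ccRCC cells commonly carry vimentin and keratins together.

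The E-box of these repressors was searched as CAGGTG and as its reverse complement CACCTG, which together cover both strands, in the 250 bases before each transcription start in the RefSeq promoter table (GRCh38.p14). Of the 7 genes, 4 had an entry, VIM, ZEB1, ZEB2 and TWIST2. SNAI1, SNAI2 and TWIST1 had none. The windows of VIM, of the most upstream ZEB1 start and of MUC1 are shown because VIM and ZEB1 differed between A4KO and WT and because MUC1 is a listed epithelial gene that fell in 786O and holds 2 E-boxes, an example chosen after its values were seen. Bases in capitals are the E-boxes, and each sequence reads 5′ to 3′ on the strand of its gene. The VIM window is chr10:17227991-17228240 (plus strand), with no annotated exon in it. The ZEB1 window is chr10:31318167-31318416 (plus strand), and exons of the antisense transcript ZEB1-AS1 reach into it. The MUC1 window is chr1:155192916-155193165 (minus strand), and an exon of a further MUC1 transcript reaches into it.
VIM: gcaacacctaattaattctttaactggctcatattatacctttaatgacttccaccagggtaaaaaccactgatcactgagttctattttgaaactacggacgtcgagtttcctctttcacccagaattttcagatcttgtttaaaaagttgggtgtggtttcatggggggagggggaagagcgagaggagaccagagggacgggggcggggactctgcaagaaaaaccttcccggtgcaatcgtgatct
ZEB1: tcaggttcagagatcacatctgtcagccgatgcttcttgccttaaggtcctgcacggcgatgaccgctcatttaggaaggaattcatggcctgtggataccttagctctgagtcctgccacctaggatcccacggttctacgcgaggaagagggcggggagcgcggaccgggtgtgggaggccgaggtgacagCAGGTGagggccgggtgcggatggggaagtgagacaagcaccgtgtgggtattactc
MUC1: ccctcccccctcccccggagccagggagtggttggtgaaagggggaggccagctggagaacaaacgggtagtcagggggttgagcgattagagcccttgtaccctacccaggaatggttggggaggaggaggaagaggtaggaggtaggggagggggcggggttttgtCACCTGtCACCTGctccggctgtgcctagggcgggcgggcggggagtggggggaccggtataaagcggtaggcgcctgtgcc
The ZEB1 window holds 1 E-box, 57 bases before the start, and the VIM window holds 0. Of the other 6 ZEB1 windows, not shown, 1 holds 2 E-boxes and 5 hold 0. In MUC1 the E-boxes lie 82 and 75 bases before the start. CRB3, a polarity gene whose window is not shown and which was also chosen after its values were seen, holds 5, and it was higher in 786O A4KO cells (log2 fold change 0.84, adjusted p = 4.2e-05), where MUC1 was lower (-1.97), and lower in those of CAKi-1 (-0.57, adjusted p = 0.024), where MUC1 stood at -0.64 (adjusted p = 0.099). CRB3 was in neither line past the fold for a call. Of the 35116 windows in the table, 17.5% held this E-box. Among listed epithelial genes that EMT factors are known to repress, 14 of 25 windows held it (56%), against 5 of 36 windows of listed mesenchymal genes (13.9%). These windows came from 19 of 38 listed epithelial genes and 26 of 40 listed mesenchymal genes. Windows of the same gene can share an E-box, as those of MUC1 do, and the shares were not tested. A match describes these letters only and is not a measured binding site.

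ANGPTL4 itself was lower in the A4KO libraries of both lines, at 2.87 to 7.26 TPM against 71.7 to 86.9 TPM in CAKi-1 and at 1.86 to 2.19 TPM against 17.6 to 20.6 TPM in 786O. Among the CAKi-1 A4KO libraries, replicates 1 and 4 stood apart with 7.26 and 6.47 TPM of ANGPTL4, against 2.87 to 2.90 TPM in the others. Several of the results that they move, but not all, are also given without them. The part of this difference in the results was not tested. PAX8, the renal lineage factor that marks ccRCC, ranged from 143 to 230 TPM over the CAKi-1 libraries and from 148 to 238 TPM over those of 786O. Of the listed renal tubule and ccRCC markers, 13 of 15 genes were measured in CAKi-1 and 15 in 786O. Summed, they were at 337 to 514 TPM in WT and 835 to 1174 TPM in A4KO libraries of CAKi-1, and at 741 to 775 TPM and 536 to 550 TPM in 786O. In CAKi-1 1 of them, VCAM1, was higher by at least 1 on the log2 scale with an adjusted p of at most 0.05 (list median 0.12). In 786O 1 was higher and 4 were lower by that rule, VCAM1 among the lower (list median -0.51). Of all genes 3.33% passed it in CAKi-1 and 7.62% in 786O. Of the listed markers of other cell types, 7 of 9 fibroblast, 1 of 6 endothelial and 5 of 7 leukocyte genes were measured in CAKi-1, and 6, 3 and 4 of them in 786O. Summed, fibroblast markers reached 24.5 to 34.4 TPM in WT and 48.8 to 73.1 TPM in A4KO libraries of CAKi-1, with COL1A1 going from 10.2 ± 1.15 to 36.2 ± 5.63 TPM (SD, n = 4 and 5, log2 fold change 1.72), PDGFRB at 14.5 ± 2.78 and 18.7 ± 3.49 TPM (adjusted p = 0.10) and LUM falling from 3.63 ± 0.430 to 1.58 ± 0.432 TPM (-0.85, adjusted p = 6.4e-04). The fibroblast collagen gene COL1A2 stayed at or below 0.291 TPM. In 786O the fibroblast sum was 11.5 to 15.6 TPM in WT and 9.61 to 12.4 TPM in A4KO libraries. The endothelial value of CAKi-1 is that of 1 gene and not a sum. It ranged from 0.209 to 0.555 TPM in WT and from 1.54 to 6.17 TPM in A4KO libraries (log2 fold change 1.55). In 786O the endothelial sums ranged from 1.36 to 1.89 TPM in WT and from 0.680 to 0.687 TPM in A4KO libraries. Leukocyte sums, which CD68 led, ranged from 58.8 to 61.7 TPM in WT and from 53.5 to 65.2 TPM in A4KO libraries of CAKi-1, and from 46.4 to 47.5 TPM and from 21.1 to 22.0 TPM in 786O, while the pan-leukocyte gene PTPRC stayed at or below 0.541 TPM in every library. Of these markers 0 were at a value of exactly 0 in a whole group. The part of such cells in the results below was not tested, and in bulk RNA fewer cells of a kind and less RNA per cell cannot be told apart.

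VIM was by far the most abundant of the 7 genes in every library. Its mean was 3220 ± 100 TPM in CAKi-1 WT (SD, n = 4) and 4508 ± 115 TPM in 786O WT cells (SD, n = 3), at rank 29 to 30 and 14 to 16 among all genes of a library. It held 0.332% of all listed TPM in CAKi-1 WT and 0.465% in 786O WT cells. The transcription factors ranged from 0.0286 to 29.8 TPM over all libraries. In CAKi-1 WT cells ZEB2 (19.7 ± 3.93 TPM), SNAI1 (15.1 ± 3.07 TPM) and ZEB1 (14.6 ± 0.730 TPM) followed VIM with overlapping ranges. TWIST1 (8.48 ± 0.918 TPM), SNAI2 (1.44 ± 0.112 TPM) and TWIST2 (0.574 ± 0.292 TPM) lay below them, each separated from the next. In 786O WT cells the order was led by SNAI2 (28.8 ± 0.850 TPM), followed by SNAI1 (20.6 ± 0.289 TPM) and ZEB2 (19.8 ± 3.21 TPM), whose ranges overlapped, and by ZEB1 (15.5 ± 0.761 TPM), which lay below ZEB2. SNAI2 was thus the lowest but one of the factors in CAKi-1 WT cells and the highest in 786O WT cells. The values of the lines lie in separate tables, so levels of the lines were not tested against each other.

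**Figure D1:**
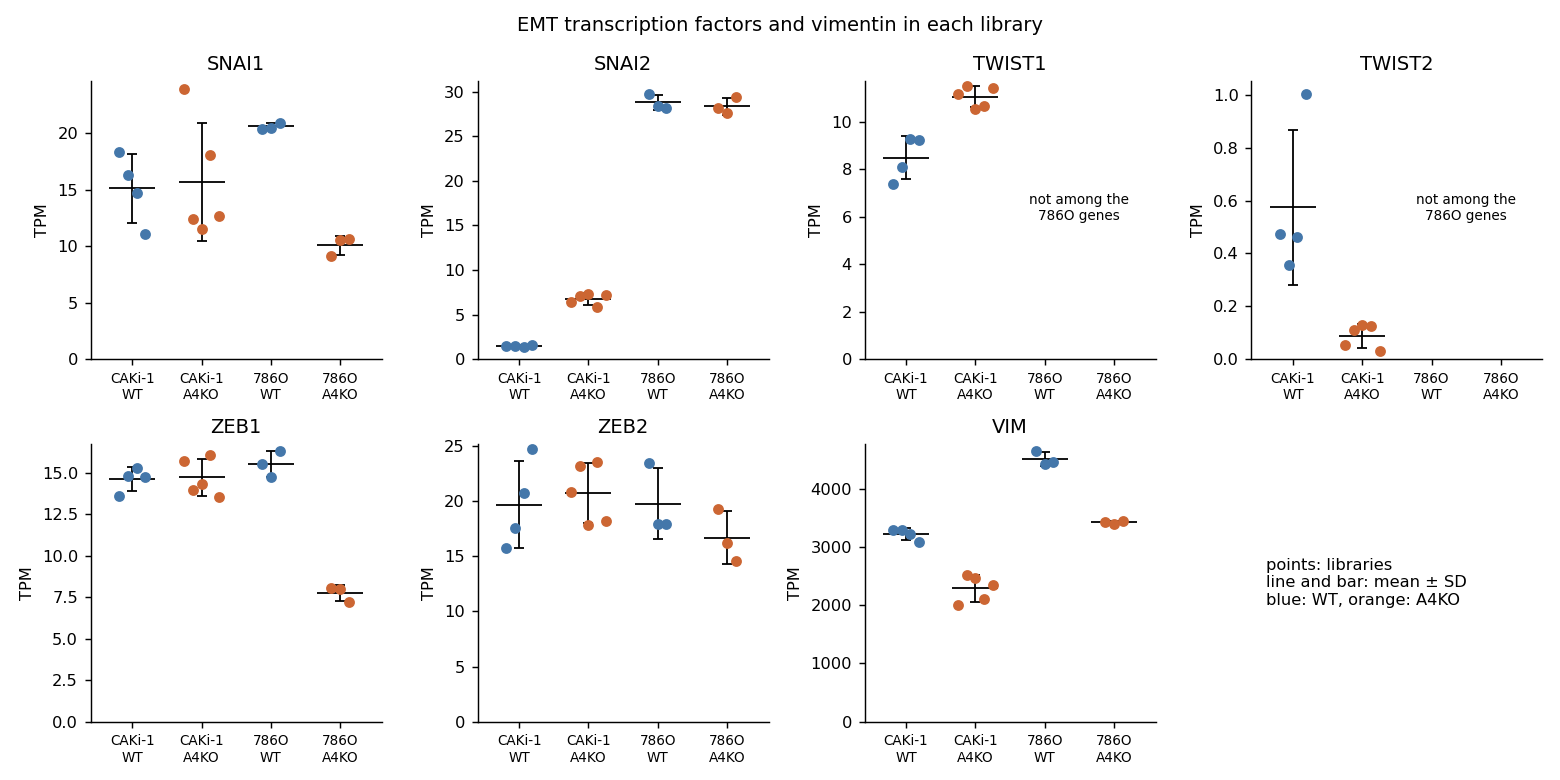
TPM (vertical axes, each from 0) of the 7 genes in the WT (blue) and A4KO (orange) libraries of both lines (horizontal axes), where points are libraries and lines with bars are means ± SD. SNAI2 is higher in all A4KO than in all WT libraries of CAKi-1, SNAI1 and ZEB1 are lower in all A4KO than in all WT libraries of 786O, and VIM is lower in A4KO cells of both lines.

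In CAKi-1 the loss of ANGPTL4 was accompanied by a higher SNAI2 level, a smaller rise of TWIST1, and lower VIM and TWIST2, while SNAI1, ZEB1 and ZEB2 did not pass the test. To be called, a gene had to differ by 1 or more on the log2 scale in either direction, with an adjusted p not above 0.05. SNAI2 alone of the 7 genes was called, where 3.33% of all genes were called, 2.21% as higher and 1.12% as lower. By the adjusted p alone 4 of the 7 genes passed, 2 higher and 2 lower, against 39.0% of all genes. For the same 4 genes all A4KO values lay to one side of all WT values, against 35.9% of all genes. With 7 genes these shares were not set apart from the background, and the median log2 fold change of the 7 was 0.02 beside -0.01 for all genes.

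SNAI2 stood at 1.41, 1.41, 1.34 and 1.60 TPM in the WT libraries of CAKi-1 and at 6.38, 7.13, 7.35, 5.80 and 7.15 TPM in the A4KO libraries. The lowest A4KO library lay well above the highest WT library, and A4KO replicates 1 and 4 were the lowest of their group. The mean rose 4.70-fold, and on the log2 scale of TPM + 1 by 1.67 (SE 0.071, adjusted p = 1.13e-06; exact permutation p = 0.0159, two-sided, the smallest that 4 against 5 libraries allow). The 50 expressed genes around SNAI2 on chromosome 8 had a median log2 fold change of 0.02, with 25 lower and 25 higher.

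TWIST1 was measured at 7.36, 8.11, 9.26 and 9.21 TPM across the WT libraries and at 11.2, 11.5, 10.5, 10.6 and 11.4 TPM in A4KO libraries. The groups did not overlap, and the mean was 30.3% higher in A4KO cells (log2 fold change 0.35, SE 0.070, adjusted p = 0.0040), below the fold that was required for a call. TWIST2, its close relative, was hardly expressed, at 0.474, 0.355, 0.463 and 1.004 TPM across the WT libraries and at 0.0532, 0.110, 0.130, 0.123 and 0.0286 TPM in A4KO libraries. The A4KO values were all lower, with a log2 fold change of -0.52 (SE 0.11, adjusted p = 0.0046), and of -0.39 without WT replicate 4 (adjusted p = 0.0016). At such levels the size of the change depends on the pseudocount, and it was -1.78 with 0.1 and -2.61 with 0.01 in place of 1, both past the fold for a call.

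VIM, in turn, was lower in the CAKi-1 A4KO libraries, at 2002, 2515, 2474, 2103 and 2340 TPM against 3297, 3284, 3223 and 3078 TPM in WT. Every A4KO library lay below every WT library, and replicates 1 and 4 were again the lowest. The mean was 2287 ± 227 TPM (SD, n = 5), a change of -29.0%, and on the log2 scale VIM fell by 0.50 (SE 0.076, adjusted p = 9.7e-04). With replicates 1 and 4 left out it fell by 0.40 (adjusted p = 7.1e-04). VIM lies at chr10:17228241-17237593, and the 50 expressed genes around it had a median log2 fold change of -0.27, with 38 lower and 12 higher. After the shift of the neighbours was taken off in each library, VIM fell by 0.24 (adjusted p = 0.023).

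SNAI1 was the most variable of the factors in CAKi-1 A4KO cells after the barely expressed TWIST2, with a coefficient of variation of 33.4%. It was measured at 18.3, 16.3, 14.7 and 11.1 TPM across the WT libraries and at 23.9, 12.4, 11.5, 18.0 and 12.6 TPM in A4KO libraries. The groups overlapped, and replicates 1 and 4 held the highest values of the A4KO group. The log2 fold change was 0.02 (95% interval -0.47 to 0.51, adjusted p = 0.95), and it was -0.27 without those 2 libraries (adjusted p = 0.19).

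The ZEB genes did not pass the test in CAKi-1 either. For ZEB1 the WT libraries held 13.6, 14.8, 15.3 and 14.8 TPM and the A4KO libraries 15.7, 13.9, 14.3, 16.1 and 13.6 TPM (log2 fold change 0.01, 95% interval -0.14 to 0.15, adjusted p = 0.94). For ZEB2 the WT libraries held 15.7, 17.5, 20.7 and 24.7 TPM and the A4KO libraries 20.9, 23.2, 17.8, 23.6 and 18.2 TPM (log2 fold change 0.08, 95% interval -0.22 to 0.39, adjusted p = 0.66). The groups overlapped for both genes, and the interval of ZEB1 was the narrower one. ZEB1 lies on chromosome 10 as VIM does, and its 50 expressed neighbours had a median of -0.21, with 37 lower and 13 higher. Relative to these neighbours ZEB1 was higher by 0.22 (adjusted p = 0.013).

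In 786O the genes that moved were in part different, while VIM was lower in both lines. SNAI1, ZEB1 and VIM were lower in A4KO cells, and SNAI2 and ZEB2 did not pass the test. Of the 5 genes measured, 0 were called by limma, although 3 had an unadjusted and an adjusted p under 0.05, where 7.62% of all genes were called, 2.43% as higher and 5.19% as lower. By the adjusted p alone 3 of 5 passed, all of them lower, against 61.0% of all genes. For the same 3 genes the libraries did not overlap, against 66.9% of all genes. The median log2 fold change was -0.40 over the 5 genes and -0.03 over all genes. With 3 against 3 libraries the exact permutation test cannot go below 0.1, so the test across all genes was used.

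SNAI1 was measured at 20.4, 20.5 and 20.9 TPM in the WT libraries of 786O and at 9.12, 10.5 and 10.6 TPM in the A4KO libraries. The highest A4KO value was far below the lowest WT value, and the mean in A4KO cells was 0.490 times that in WT cells. On the log2 scale SNAI1 fell by 0.96 (SE 0.061, adjusted p = 3.4e-05), just short of the fold for a call. It was past that fold with a pseudocount of 0.1 (-1.03). The 50 expressed genes around SNAI1 (chr20:49982980-49988886) had a median log2 fold change of 0.30, with 37 higher and 13 lower, so that SNAI1 moved against its neighbours and stood at -1.27 relative to them.

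ZEB1 fell to about the same extent, from 15.6, 14.8 and 16.3 TPM in WT to 8.04, 8.02 and 7.20 TPM in A4KO libraries. The groups lay far apart, and the ratio of the means was 0.499. The log2 fold change was -0.92 (SE 0.058, adjusted p = 3.2e-05), and -1.003 with a pseudocount of 0.01, again at the border of a call. The neighbours of ZEB1 (chr10:31318495-31529814) had a median of 0.05 in this line.

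For VIM the WT libraries of 786O held 4640, 4426 and 4459 TPM and the A4KO libraries 3427, 3401 and 3448 TPM. The A4KO libraries lay close together and below all WT libraries. The mean changed by -24.0%, and VIM fell by 0.40 on the log2 scale (SE 0.036, adjusted p = 1.5e-04), while its neighbours had a median of 0.00. Vimentin RNA remained among the 21 most abundant transcripts of every A4KO library of 786O and among the 75 most abundant of every A4KO library of CAKi-1.

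SNAI2, the gene that rose in CAKi-1, was measured at 29.8, 28.5 and 28.2 TPM across the WT libraries and at 28.2, 27.6 and 29.5 TPM in A4KO libraries of 786O. The groups overlapped (log2 fold change -0.02, 95% interval -0.12 to 0.083, adjusted p = 0.71). The 50 expressed genes around SNAI2 had a median of -0.16 in this line, with 36 lower and 14 higher, and relative to them SNAI2 stood at 0.13 (adjusted p = 0.037). ZEB2 was measured at 23.5, 17.9 and 17.9 TPM across the WT libraries and at 19.3, 16.2 and 14.6 TPM in A4KO libraries, with 1 WT library above the others and overlapping groups (log2 fold change -0.23, 95% interval -0.57 to 0.11, adjusted p = 0.20). Without that library, WT replicate 1, it was -0.11 (adjusted p = 0.49).

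**Figure D2:**
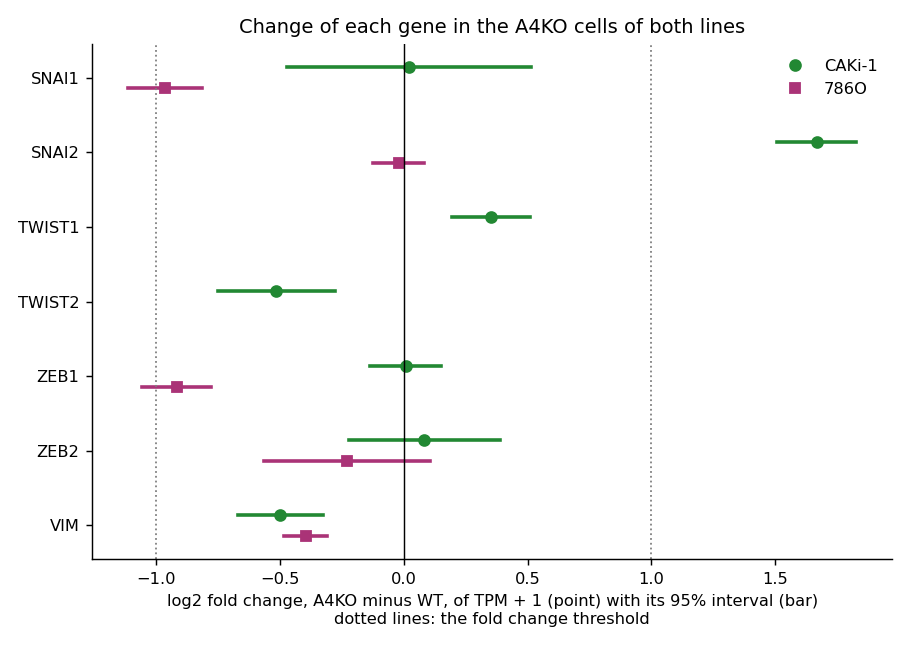
Log2 fold change of TPM + 1, A4KO minus WT (horizontal axis), for each gene (vertical axis) in CAKi-1 (circles) and 786O (squares), with 95% intervals as bars and the fold threshold as dotted lines. SNAI2 in CAKi-1 (1.67) lies past the threshold, SNAI1 (-0.96) and ZEB1 (-0.92) in 786O lie just inside it, and the VIM changes of the lines (-0.50 and -0.40) have overlapping intervals.

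Whether the difference of A4KO from WT was unlike in the 2 lines was tested with an interaction term. It covered the 15247 genes measured in both, of which 55.1% passed the adjusted p. The WT cells were the parental line in CAKi-1 and a mixture of clones in 786O. In this term the loss of ANGPTL4 and the unlike controls cannot be told apart. The effect on SNAI2 differed by -1.69 (786O minus CAKi-1, SE 0.095, adjusted p = 6.5e-09), that on SNAI1 by -0.98 (SE 0.29, adjusted p = 0.010) and that on ZEB1 by -0.93 (SE 0.093, adjusted p = 1.8e-06). For ZEB2 the difference was -0.31 (95% interval -0.77 to 0.14, adjusted p = 0.23). For VIM it was 0.10 (95% interval -0.11 to 0.32, adjusted p = 0.40), so that the fall of VIM was not shown to differ between the lines. Permuting the genotype labels within each line, whose null is no effect in either line, gave exact permutation p = 0.0040 for SNAI2, 0.048 for SNAI1 and for ZEB1, 0.20 for ZEB2 and 0.73 for VIM. These are unadjusted, and adjusted for the 5 genes (Benjamini-Hochberg) they were 0.020 for SNAI2 and 0.079 for SNAI1 and ZEB1, so that of these 3 differences SNAI2 alone passed by exact permutation.

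Because the paralogs did not move together, their balance within each library was examined, after the values had been seen and therefore without a test. The SNAI2 to SNAI1 ratio was 0.0768 to 0.144 in WT and 0.267 to 0.637 in A4KO libraries of CAKi-1, with means of 0.0995 and 0.473. A4KO replicates 1 and 4 held the lowest ratios of their group (0.267 and 0.322), and without them the mean was 0.593. In 786O the SNAI2 to SNAI1 ratio was 1.35 to 1.46 in WT and 2.62 to 3.09 in A4KO libraries. In both lines the ratio was thus higher in all A4KO libraries, in CAKi-1 with SNAI2 higher and in 786O with SNAI1 lower. The ZEB2 to ZEB1 ratio was 1.10 to 1.51 in WT and 2.02 to 2.40 in A4KO libraries of 786O, and 1.16 to 1.67 against 1.25 to 1.66 in CAKi-1. The summed TPM of the measured SNAI, TWIST and ZEB genes was 59.9 ± 2.61 TPM in WT and 69.1 ± 7.08 TPM in A4KO cells of CAKi-1 (SD, n = 4 and 5), with overlapping ranges and replicates 1 and 4 (78.1 and 74.3 TPM) as the highest. Without them the A4KO mean was 64.3 ± 3.49 TPM (SD, n = 3). The sum was 84.7 ± 3.99 TPM in WT and 62.9 ± 1.48 TPM in A4KO cells of 786O (SD, n = 3 and 3), with no overlap.

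**Figure D3:**
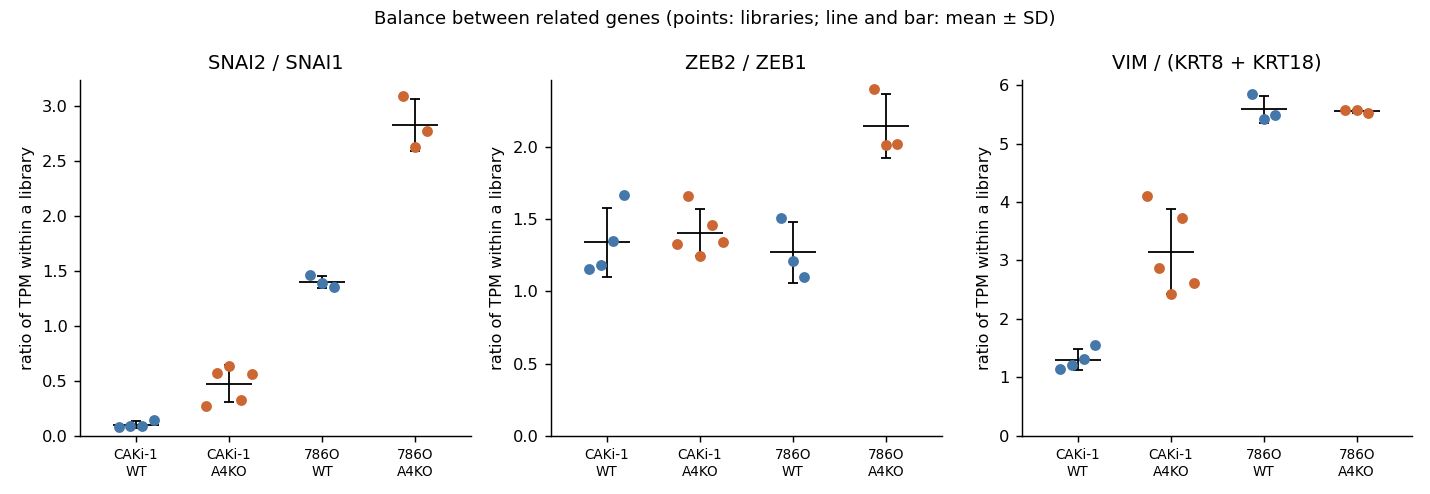
Ratio of TPM within a library (vertical axes, each from 0) of SNAI2 to SNAI1, of ZEB2 to ZEB1 and of VIM to the sum of KRT8 and KRT18, for WT (blue) and A4KO (orange) libraries of both lines (points; lines and bars are means ± SD). The SNAI2 to SNAI1 ratio is higher in all A4KO libraries of both lines, the ZEB2 to ZEB1 ratio in those of 786O, and the VIM to keratin ratio in those of CAKi-1.

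VIM was also set beside KRT8 and KRT18, the simple epithelial keratins that form the other filament system of these cells. In CAKi-1 the keratins fell further than VIM did. KRT8 went from 1513 ± 214 to 425 ± 132 TPM (log2 fold change -1.88, adjusted p = 3.2e-04) and KRT18 from 995 ± 176 to 342 ± 97.0 TPM (-1.57, adjusted p = 6.3e-04). The ratio of VIM to their sum was 1.15 to 1.55 in WT and 2.43 to 4.11 in A4KO libraries. A4KO replicates 1 and 4 held the highest ratios (4.11 and 3.73), and without them the range was 2.43 to 2.87. In 786O the ratio of VIM to the keratins was 5.42 to 5.86 in WT and 5.52 to 5.57 in A4KO libraries, with overlapping ranges. In CAKi-1 A4KO cells VIM was thus lower in TPM and higher relative to the keratins.

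The targets and partners of the factors were taken as lists that were drawn up with earlier results of these data known, and no test was made of a list as a whole. Each is given by the count of its called genes, beside 3.33% of all genes in CAKi-1 and 7.62% in 786O, by its median and by the genes that changed most. The numbers that passed the adjusted p alone are given too, where 39.0% of all genes passed in CAKi-1 and 61.0% in 786O. Of 34 epithelial genes repressed in EMT and measured in CAKi-1, 3 were called higher and 4 lower (20.6%), and the median change on the log2 scale was -0.13. However, 6 were higher and 15 lower by the adjusted p alone. KRT19, a keratin of simple epithelia (-3.92), KRT8 and KRT18 fell, and the junction genes JUP (plakoglobin, 2.23), CLDN1 (1.56) and CLDN3 (1.08) rose. In 786O 5 of 33 were called higher and 6 lower (33.3%), with a median of 0.10 (8 called higher and 8 lower with a pseudocount of 0.1), and 16 were higher and 11 lower by the adjusted p alone. There PKP2 (plakophilin 2) rose by 2.42, CLDN4 by 2.18 and SPINT1, a protease inhibitor of epithelia, by 2.14, while EPCAM (-2.16), MUC1 (-1.97) and CLDN1 (-1.67) fell. Called in both lines were 4 genes of the list, JUP and KRT19 in the same direction and CLDN1 and CLDN4 in opposite directions (-1.07 for CLDN4 in CAKi-1). CLDN3 lost its call in CAKi-1 without A4KO replicate 1 (0.95), 4 (0.92) or both (0.70). CDH1, the defining target, stayed very low in both lines, at 0.434 ± 0.228 against 0.382 ± 0.121 TPM in CAKi-1 (log2 fold change -0.04, adjusted p = 0.79) and at 0.104 ± 0.0721 against 0.262 ± 0.0551 TPM in 786O (0.19, adjusted p = 0.033). EPCAM, an epithelial adhesion gene, also fell in CAKi-1, by 0.47 on the log2 scale (adjusted p = 0.0029), below the fold for a call. The splicing factor gene ESRP1 was at 0.105 ± 0.0340 against 0.116 ± 0.0735 TPM in CAKi-1 (adjusted p = 0.89).

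Of the mesenchymal genes raised in EMT, 10 of 37 were called higher and 2 lower in CAKi-1 (32.4%), with a median of 0.12, while 14 were higher and 9 lower by the adjusted p alone. FN1 (fibronectin) rose by 4.57 on the log2 scale, COL1A1 by 1.72, FBN1 (fibrillin 1) by 1.54, COL6A1 by 1.52 and MMP14, a membrane-bound matrix protease, by 1.504. In 786O the same list had 2 of 36 called higher and 12 lower (38.9%), with a median of -0.49, and 6 higher and 24 lower by the adjusted p alone. The matrix genes TNC (tenascin C, -5.16), MMP2 (-4.82), LOX (lysyl oxidase, -3.78) and FN1 (-2.16), and CDH11, a cadherin of mesenchymal cells (-4.99), fell there, and PDGFRB rose by 1.998. Called in both lines were 5 genes of the list, COL6A1, COL6A2, FBN1, FN1 and WNT5A (COL6A2 and WNT5A named after their values were seen), and all 5 rose in CAKi-1 and fell in 786O. CDH2 (N-cadherin) went down in both, by -1.33 in CAKi-1, from 70.2 ± 3.02 to 27.3 ± 1.75 TPM (adjusted p = 1.6e-06), and by -0.78 in 786O, from 122.7 ± 3.49 to 70.8 ± 0.852 TPM (adjusted p = 1.1e-05).

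**Figure D4:**
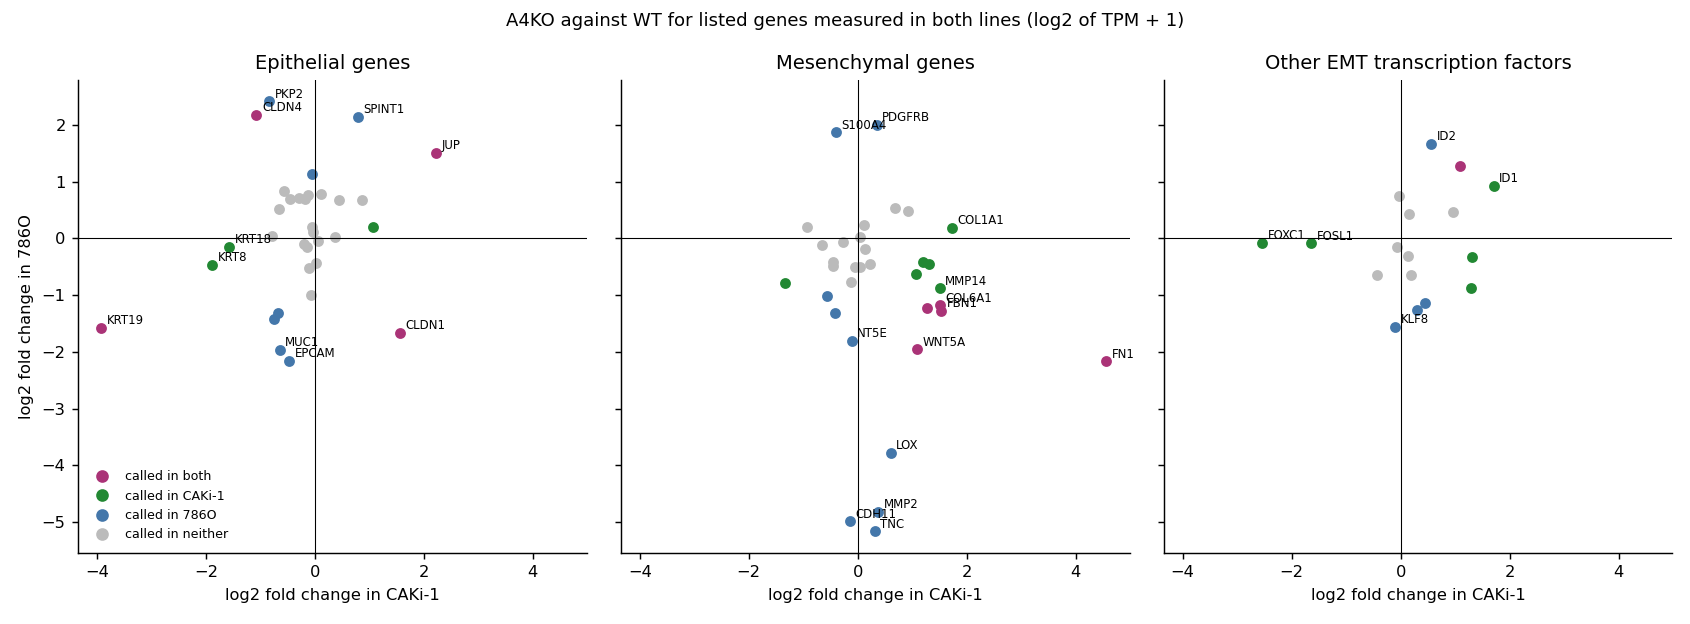
Log2 fold change of TPM + 1 (A4KO minus WT) in CAKi-1 (horizontal axes) and in 786O (vertical axes) for the listed epithelial genes, mesenchymal genes and other EMT transcription factors that were measured in both lines and are reported here, where each point is a gene and its colour gives the line in which it was called. Among mesenchymal genes the 5 that were called in both lines, FN1 among them, lie at the lower right, higher in CAKi-1 and lower in 786O.

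Of other transcription factors with a known part in EMT, 5 of 20 were called higher and 2 lower in CAKi-1 (35.0%, median 0.24) and 2 of 19 were called higher and 5 lower in 786O (36.8%, median -0.31). By the adjusted p alone 8 were higher and 3 lower in CAKi-1, and 6 and 8 in 786O. In CAKi-1 the forkhead gene FOXC1 (-2.54) and the AP-1 gene FOSL1 (-1.64) fell, and ID1 (1.71) and ID3 (1.10), whose products block helix-loop-helix factors such as TWIST1, rose, as did LEF1 (1.31) and SOX4 (1.30). In 786O FOXQ1 (-2.97), KLF8 (-1.56) and SOX9 (-1.26) fell, and ID2 (1.66) and ID3 (1.27) rose. ID3 was called in the same direction in both lines, but in CAKi-1 not without A4KO replicate 1 (0.95) or replicates 1 and 4 (0.80). SOX9 lost its call without WT replicate 2 or 3 or A4KO replicate 1 or 3 (adjusted p from 0.078 to 0.091).

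The cofactors through which SNAI and ZEB proteins repress, such as CTBP1, HDAC1 and KDM1A, were called by limma for 0 of 14 genes in CAKi-1 and for 1 of 14 in 786O, LOXL3, which fell by 1.23 on the log2 scale. By the adjusted p alone 1 was higher and 3 lower in CAKi-1 (3 and 3 by the unadjusted p), with a median of -0.03, and 5 were higher and 7 lower in 786O, with a median of -0.04. Kinases, ubiquitin ligases and deubiquitinases that set the stability of the proteins were called by limma for 0 of 16 genes in CAKi-1, where 2 were higher and 2 lower by the adjusted p alone and 3 and 5 by the unadjusted p (median -0.0031). In 786O 8 were higher and 6 lower by the adjusted p (median 0.13), and LATS2, a Hippo pathway kinase, was called higher (1.31) and PRKD1, protein kinase D1, lower (-1.03, and -0.996 without A4KO replicate 3).

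Among the ligands and receptors that start EMT, TGFB2 rose by 3.35, IL6 by 2.80, the Notch ligand JAG1 by 2.68 and its receptor gene NOTCH3 by 1.28 in CAKi-1, which were 4 of 19 genes (21.1%, median 0.07). IL6 was uneven, at 5.38, 10.7, 33.2 and 145 TPM in WT and 269, 134, 157, 217 and 117 TPM in A4KO cells, with overlapping groups. Its call was lost without WT replicate 2 (2.44, adjusted p = 0.061) and without A4KO replicates 1 and 4 (2.46, adjusted p = 0.083), and without WT replicate 4 the change was 3.65 (adjusted p = 0.0012). In 786O 4 of 18 were called, all as lower (22.2%, median -0.16), WNT5B (-4.37), BMP4 (-1.58), TGFB3 (-1.30) and IL6 (-1.22). Of the ligands and receptors 7 were higher and 5 lower by the adjusted p alone in CAKi-1, and 5 and 10 in 786O. Of the SMAD, HIF and other effectors, 1 of 18 was called higher and 1 lower in CAKi-1 (11.1%), EPAS1 (HIF-2α, 1.99) and SMAD3 (-1.04, and -0.97 without WT replicate 4). In 786O HIF1A (-3.40) was the single gene called among 18 (5.56%). Among these effectors 1 was higher and 9 lower by the adjusted p alone in CAKi-1 (median -0.22), and 4 were higher and 11 lower in 786O (median -0.18). Of the filament and linker genes that accompany vimentin, 3 of 14 were called lower in CAKi-1 (21.4%), the keratins KRT8, KRT18 and KRT19, and 2 of 14 in 786O (14.3%), KRT19 and the neurofilament gene NEFL (-1.06). By the adjusted p alone 1 was higher and 5 lower in CAKi-1 (median -0.30), and 1 and 7 in 786O (median -0.10). The antisense and miR-200 host transcripts beside the genes were not analysed here.

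**Figure D5:**
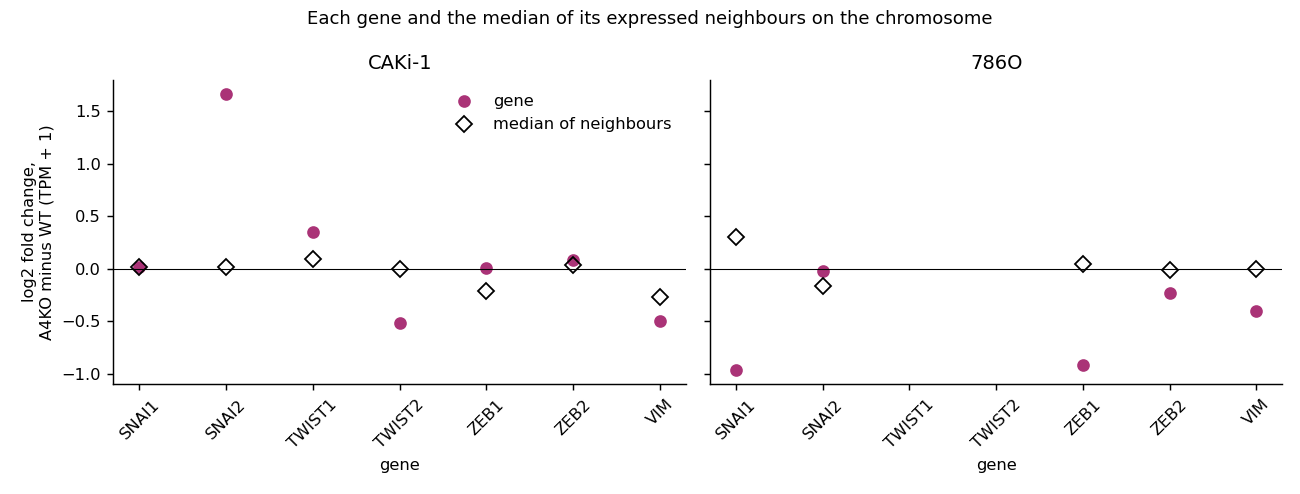
Log2 fold change of TPM + 1 (A4KO minus WT, vertical axes) of each gene (filled circles) and the median of its expressed neighbours on the chromosome (open diamonds), in CAKi-1 and 786O (panels). The neighbours of VIM and ZEB1 lie below 0 in CAKi-1 (-0.27 and -0.21) and those of SNAI1 above 0 in 786O (0.30), and the remaining medians lie nearer to 0.

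The genes whose levels followed each factor most closely over the 15 libraries were listed after the mean of each line had been taken off, among 11912 genes, as a description in which all points share library and genotype. SNAI2 was followed by CD83 (Pearson r = 0.985), TOX and PAIP1, and ZEB1 by PTPRU (0.990), RRBP1 and PACS2. For SNAI1 the likest genes were TFAP2A (0.960), LTBP3 and KIFAP3, and for VIM they were FHOD1 (0.995), AARS1 and VOPP1. ZEB2 had no gene as close, the likest being TNFAIP3 (0.854), NEURL2 and VAMP4. Among the 5 genes themselves the highest correlation was that of SNAI1 with ZEB1 (0.801) and the lowest that of SNAI2 with VIM (-0.757).

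Several of the genes share bases with transcripts of the opposite strand. In GENCODE release 44, VIM shares 656 exonic bases with VIM-AS1, ZEB1 396 with ZEB1-AS1 and ZEB2 1299 with ZEB2-AS1. The library kit is not stated to keep the strand, so reads of these partners cannot be told apart from those of the genes over the shared bases.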

How the data were processed

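Gene expression was measured by RNA-seq of polyadenylated RNA from CAKi-1 and 786O cells. Per the labels, libraries were made with the NEBNext Ultra II kit and sequenced as paired 150-base reads, at a stated 3000000 reads per sample. The authors quantified the reads with Kallisto against hg38 and deposited gene-level TPM, a unit inferred here from values that are not whole and sum to between 961437 and 973887 per library. The summing of transcripts to genes is not given in the sources used here. Read numbers cannot be had from TPM, so no counting interval could be given, and the depth behind single values is unknown.

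Here A4KO and WT cells were compared on log2(TPM + 1), separately by line, with limma 3.58.1 in R 4.3.3 (two-sided, without a filter, p-values adjusted by Benjamini-Hochberg across every gene of that line), and the difference between the lines by an interaction term over the genes of both. Adjusted p-values of single genes are from these fits. Exact permutation tests were run on single genes. Group and replicate were taken from the labels. Neighbours were the 25 expressed genes (mean log2 of at least 1) on each side in GENCODE release 44. Promoter windows came from RefSeq. The procedure was tested on simulated data. The 7 genes, the 9 gene lists and the 4 marker lists were chosen with earlier results of these data known. The genes named are the 7, ANGPTL4, up to 6 called genes of each list and line with the largest change, CDH1, CDH2, EPCAM and ESRP1, the 3 genes most like each of the 5 measured in both lines, and markers. The alternatives were other pseudocounts, a filter on low values, quantile normalization, trend and robust options, neighbour-centred values, the replicate number as a block and each library left out, for listed genes added after seeing the data. Of the listed genes, 2 enter the counts and medians but are not reported here singly.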

Additional observations from a re-analysis of the deposited data

Results flagged for a closer look

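For 3 genes the difference of A4KO from WT was unlike in the 2 lines by the interaction term in limma. As the WT cells were parental in CAKi-1 and clones in 786O, the loss of ANGPTL4 and the unlike controls cannot be told apart here. SNAI2 differed by -1.69 on the log2 scale (786O minus CAKi-1, adjusted p = 6.5e-09), with SNAI2 higher in 5 of 5 A4KO libraries of CAKi-1 and overlapping groups in 786O. SNAI1 differed by -0.98 (adjusted p = 0.010) and ZEB1 by -0.93 (adjusted p = 1.8e-06), and both were lower in 3 of 3 A4KO libraries of 786O with overlapping groups in CAKi-1. By exact permutation of the genotype labels, adjusted for the 5 genes tested, p was 0.020 for SNAI2 and 0.079 for SNAI1 and for ZEB1. Of all genes measured in both lines 55.1% passed the same test. In 14 sets of CAKi-1 values (7 genes in 2 groups), 0 held a single library whose gap to the next, as a share of the group's range, passed Dixon's 95% critical value. The nearest to it was WT replicate 4 for TWIST2, at 1.004 TPM with a share of 0.817. This search cannot see a pair such as A4KO replicates 1 and 4. The 786O values, with 3 libraries in a group, were not searched. There WT replicate 1 stood apart for ZEB2 (23.5 TPM against 17.9 and 17.9 TPM). A4KO replicate 3 stood apart for ZEB1 (7.20 TPM against 8.04 and 8.02 TPM).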

How the results depend on the processing

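Of 310 alternative values for the 7 genes, their differences between the lines and the numbers of called genes, 289 kept their direction and, for single genes, their side of an adjusted p of 0.05 (for exact permutation, an unadjusted p), 0 no longer passed it, 2 newly passed it, 13 changed direction and 6 counts moved by over 1.5 times. The changes of SNAI2, TWIST1, TWIST2 and VIM in CAKi-1 and of SNAI1, ZEB1 and VIM in 786O kept their direction and an adjusted p of at most 0.05 in every alternative run for them. The values that changed direction belonged to genes that had not passed the test. For SNAI2 in 786O they were 0.014 with quantile normalization and 0.13 (adjusted p = 0.037) with neighbour-centred values. For SNAI1 in CAKi-1 they were -0.016 with neighbour-centred values and -0.27 without A4KO replicates 1 and 4, and for ZEB1 in CAKi-1 -0.064 without those replicates. ZEB1 in CAKi-1 kept its direction with neighbour-centred values and passed there (0.22, adjusted p = 0.013). The causes were not tested.

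With each library left out in turn, SNAI2 in 786O ranged from -0.046 to 0.0032, SNAI1 in CAKi-1 from -0.14 to 0.11, ZEB1 from -0.025 to 0.034 and ZEB2 from -0.013 to 0.19, and ZEB2 in 786O from -0.33 to -0.11. The sign turned without WT replicate 1 for SNAI2 in 786O and for ZEB1 and ZEB2 in CAKi-1, without A4KO replicate 1 or 4 for SNAI1 and ZEB1, and without WT replicate 4 for SNAI1. The number of called genes then ranged from 477 to 608 in CAKi-1 and from 1221 to 1243 in 786O. It was 1077 in CAKi-1 and 2095 in 786O with a pseudocount of 0.1, 1324 and 2340 with 0.01, and 6348 and 9874 by the adjusted p alone. Counting the fold as well, TWIST2 in CAKi-1 and SNAI1 in 786O were also called with a pseudocount of 0.1 or 0.01, ZEB1 in 786O with 0.01 and SNAI1 in 786O with neighbour-centred values. Among the lists 74 of 80 alternative counts stayed within 1.5 times. With a pseudocount of 0.1 the genes called in 786O became 8 higher among the epithelial genes and 2 lower each among the cofactors, the kinases and ligases, and the SMAD and HIF effectors. With quantile normalization, added after seeing the data, 0 kinases and ligases in 786O and 0 effectors in CAKi-1 were called lower by limma.

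The replicate numbers did not pair the libraries. The same-numbered correlations of deviations ranged from -0.06 to 0.14 in CAKi-1 and from -0.05 to 0.02 in 786O. With the replicate number as a block, 603 genes were called in CAKi-1 and 1233 in 786O. In CAKi-1 the block leaves A4KO replicate 5 without a partner, and 602 of the 603 were also called when that library alone was left out. With the block ZEB2 in 786O (-0.23) had an adjusted p of 0.019. The unknown depth limits TWIST2 and CDH1, at or below 1.004 TPM in every library.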
